A study of Saccharomyces cerevisiae with 4 samples.

Results

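The large subunit of the yeast ribosome is built from ribosomal RNA and a set of proteins named RPL, and the genes described here are those that encode RPL1 to RPL34. They were picked by systematic name from a fixed member list, which gave 60 of the 6209 genes of the count table. The list holds 34 proteins, of which 8 have a single gene and 26 have a pair of genes, copy A and copy B. All 60 genes passed the filter on low counts.

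BY4741 is a haploid laboratory strain of Saccharomyces cerevisiae with the genotype MATa his3 leu2 met15 ura3, and thiolutin is a disulfide antibiotic used to inhibit RNA polymerases. Every culture was grown in YPD medium at 28 °C. Cells of one group were left untreated, and cells of the other were given thiolutin at 3 µg/mL for 3 h. The submitters' notes name 3 independent replicates per condition, the paper's methods name an average of 2 experiments, and 2 libraries per condition were analysed here. The labels place the cells in exponential growth, whereas the methods describe overnight cultures. RNA was selected by its poly(A) tail, sequenced from both ends and counted per gene by the authors on genome build R64. How reads that match several places were counted, and whether strand was used, is not given in the sources used here. Genes of mating type a, the labelled type, lay between 1598 and 16621 normalized counts, and genes of mating type alpha between 5.70 and 985.

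Ribosomal proteins are made in near-equal numbers, since each ribosome holds a copy of most of them. The duplicated genes date from an ancient doubling of the yeast genome, and the copies of a pair encode the same or nearly the same protein. Their transcription is driven largely by Rap1, which recruits Fhl1 and its coactivator Ifh1, and many of the genes carry an intron, which most yeast genes lack. Unassembled ribosomal proteins are degraded or held by dedicated chaperones.

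The libraries held 30205335 and 29962621 reads in genes without thiolutin and 17038991 and 21440741 with it. Values below are normalized counts, that is, counts scaled by TMM, a method that sets the bulk of genes equal between libraries. The 20 most counted genes of each library took 15.3% to 17.2% of the reads in untreated cells and 31.6% to 32.1% in thiolutin cells, and TMM does not let such genes set the scale. The log2 fold change of the median gene was -0.04 on the TMM scale and -0.63 when libraries were scaled by total counts, so any direction below is relative to the other genes. From read shares alone, a change in a gene's part of the RNA and a change in RNA per cell cannot be told apart. Beyond counting noise, genes varied by 16.7% (coefficient of variation) between the untreated libraries and by 2.28% between the thiolutin libraries. In the untreated pair, 54 of the 60 genes were lower in replicate 1 than in replicate 2, with a median log2 difference of -0.19, against 0.01 over all genes.

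With thiolutin the 60 genes did not move together. The quasi-likelihood test of edgeR, adjusted by Benjamini-Hochberg over 5937 genes, called 17 of them higher and 19 lower, and 24 did not pass at 0.05. Over all genes tested, 31.2% were called higher and 32.4% lower. The median log2 fold change of the 60 genes was -0.09, with quartiles from -0.45 to 0.32, against -0.54 to 0.61 over all genes. Values ran from -1.34 for RPL13A to 2.49 for RPL29. Both thiolutin libraries lay below both untreated libraries for 30 genes (43.9% of all genes did so) and above them for 22 (40.8% of all genes), and the groups overlapped for 8. Only RPL13A was called lower with a log2 fold change of -1 or less, a rule that 10.3% of all genes met. With total counts as the scale 5 of the 60 genes were called higher and 42 lower, against 16.3% and 60.7% of all genes. That scale called 22 of the 24 genes that had not passed lower, the exceptions being RPL27A and RPL32, and of the 17 higher genes it left 11 uncalled and called RPL11A lower.

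Together the 60 genes took 5.20% and 5.91% of the reads in untreated cells and 3.80% and 3.76% in thiolutin cells. Their summed normalized counts were 1118530 and 1261267 without thiolutin and 1228986 and 1210467 with it, so on the TMM scale the groups overlapped, while the shares of total reads did not. The call of 8 genes held under 9 alternative fits, which changed the scale, the test, the filter or the libraries. These were RPL3, RPL10, RPL14B, RPL29 and RPL30, all higher, and RPL13A, RPL21A and RPL33A, all lower. Dropping untreated replicate 1 put the median log2 fold change of the 60 genes at -0.16, against -0.02 over all genes. With untreated replicate 2 dropped instead, these medians were -0.01 and -0.03. Fits that omitted thiolutin replicate 1 gave -0.11 and -0.03, and those that omitted thiolutin replicate 2 gave -0.07 and -0.04. The number of calls shifted over the whole table in such fits, so it does not describe the 60 genes alone.

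**Figure D1:**
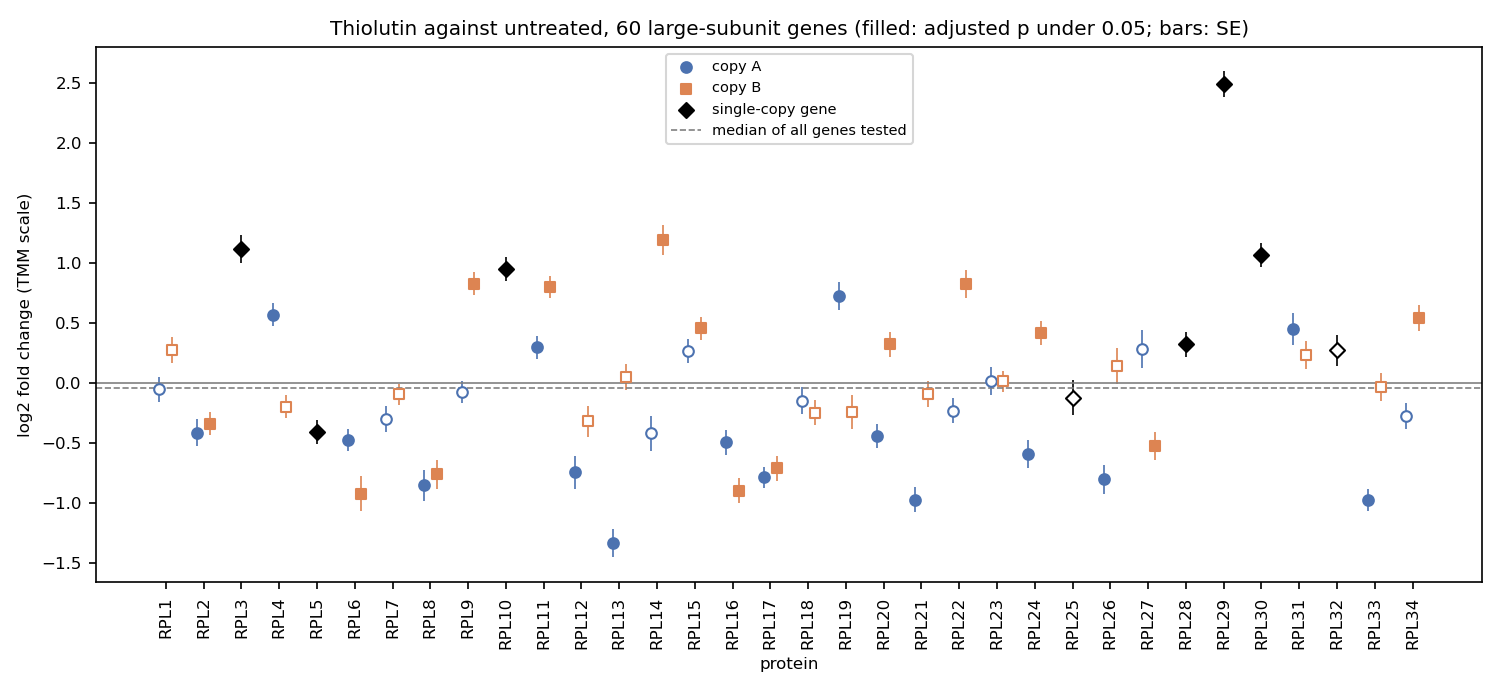
Log2 fold change on the TMM scale (vertical axis) of the 60 genes, thiolutin against untreated, by protein. Filled points passed an adjusted p of 0.05, bars are standard errors, and the points run from -1.34 (RPL13A) to 2.49 (RPL29). With total counts as the scale 42 genes are called lower.

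Among the single-copy genes 5 were higher, 1 was lower and 2 did not pass the test on the TMM scale. Their median log2 fold change was 0.64. The 52 genes in pairs had a median of -0.17 on that scale, with 12 higher and 18 lower. Over all genes tested 31.2% were called higher and 32.4% lower. With total counts as the scale RPL28 was no longer called and RPL25 was called lower. With one gene for each protein, the values of the 8 single-copy genes do not depend on how reads were divided between copies.

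RPL29 (YFR032C-A, chrVI:223258-223437, minus strand, no intron) encodes a small protein that is not essential for growth and takes part in the joining of subunits. Its normalized counts were 1180 and 1033 in untreated cells and 6139 and 6283 in thiolutin cells. Both thiolutin values were far above both untreated ones, and the log2 fold change was 2.49 ± 0.11 (standard error, n = 2 per group, adjusted p of edgeR 0.000136). Its coding sequence of 180 bp was the shortest of the 60. Of 268 coding genes shorter than 300 bp the median log2 fold change was 0.19. MIN10 lies 273 bp away on the same strand and rose by a log2 of 3.58, from 31.4 and 44.2 to 454 and 450.1 normalized counts. The part of length and of this neighbour in the value of RPL29 was not tested.

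RPL3 (YOR063W, chrXV:444686-445849, plus strand, no intron) encodes a protein that reaches toward the peptidyl transferase centre. It had 62945 and 71526 normalized counts without thiolutin and 146611 and 145449 with it. The groups did not overlap, and the log2 fold change was 1.12 ± 0.12 (standard error, n = 2 per group, adjusted p of edgeR 0.00111). Its share of all reads of the 60 genes went from 5.63% and 5.67% to 11.9% and 12.02%.

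RPL10 (YLR075W, chrXII:282927-283592, plus strand, no intron) encodes one of the last proteins to join the subunit. It stood at 39671 and 41168 normalized counts in untreated cells and at 78064 and 78175 in thiolutin cells. Its log2 fold change was 0.95 ± 0.10 (adjusted p of edgeR 0.00106). FMP25, 280 bp away on the same strand, rose by a log2 of 2.69, and its part in the value of RPL10 was not tested.

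RPL30 (YGL030W, chrVII:439091-439638, plus strand, 1 intron of 230 bp) encodes a protein that binds its own transcript and represses its splicing. Normalized counts were 11384 and 12310 without thiolutin and 25004 and 24601 with it. The groups were well separated, at a log2 fold change of 1.07 ± 0.10 (adjusted p of edgeR 0.000752). With total counts as the scale the log2 fold changes of RPL29, RPL3, RPL10 and RPL30 were 1.90, 0.53, 0.36 and 0.48, still above 0 and still called.

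The other 4 single-copy genes moved less. RPL5 (YPL131W), whose protein binds 5S ribosomal RNA, had 59200 and 64290 normalized counts without thiolutin and 47317 and 45640 with it, a log2 fold change of -0.41 ± 0.10 (adjusted p of edgeR 0.0196). RPL11, the partner of RPL5 in the 5S particle, went the other way on the TMM scale, at 0.30 ± 0.10 for RPL11A, which turned to -0.29 with total counts, and 0.80 ± 0.09 for RPL11B, which was 0.21 and not called there (adjusted p of edgeR 0.0425 and 0.00155). RPL28 (YGL103W), the gene in which cycloheximide resistance arises, had 21586 and 24308 normalized counts without thiolutin and 28276 and 29015 with it. It was called higher at a log2 fold change of 0.32 ± 0.11 (adjusted p of edgeR 0.0460), but stood at -0.27 with total counts as the scale.

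RPL32 (YBL092W) did not pass, at a log2 fold change of 0.27 ± 0.13 (adjusted p of edgeR 0.116) on the TMM scale and -0.32 with total counts, although its thiolutin values of 28555 and 28293 normalized counts lay above the untreated 21263 and 25849. RPL25 (YOL127W), whose protein sits at the exit of the peptide tunnel, had 19727 and 25102 normalized counts without thiolutin and 21313 and 19800 with it. The groups of RPL25 overlapped, and the log2 fold change was -0.12 ± 0.14 (adjusted p of edgeR 0.481), against -0.71, called lower, under total counts.

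**Figure D2:**
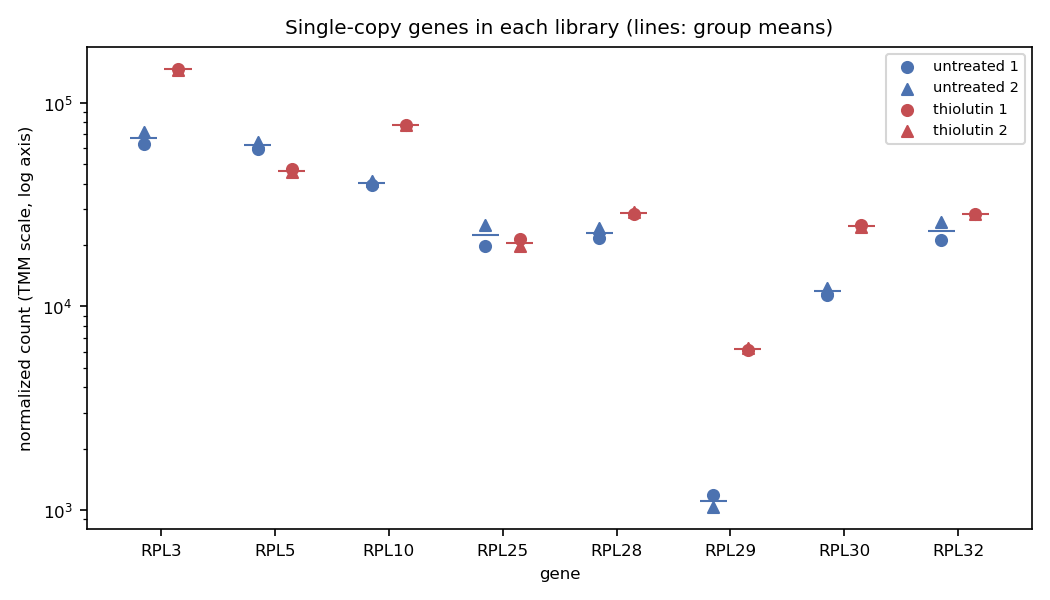
Normalized counts (TMM scale, log axis) of the 8 single-copy genes in each library, with lines at the group means. RPL29 stands lowest in all 4 libraries and shows the widest gap between groups (1180 and 1033 against 6139 and 6283), and only for RPL25 do the groups overlap.

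The copies of a pair often changed by different amounts. Taken within one library, the ratio of copy A to copy B does not depend on library scaling. This log2 ratio did not overlap between the groups in 24 of 26 pairs, being lower with thiolutin in 17 and higher in 7. Among all 62 pairs of tested genes named A and B, 83.9% did not overlap. Of these 62 pairs 59 are ribosomal protein pairs, the 26 described here included, so this background covers little else. In 21 of the 26 pairs the change in the log2 ratio exceeded the larger of the differences between replicates. The median difference between replicates was 0.10 in untreated and 0.03 in thiolutin cells, on the log2 scale. With 2 libraries against 2 an exact two-sided permutation test of one pair cannot go below a p of 0.333, which is the value these 24 pairs reached, so the counts are descriptions.

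The absolute difference between the log2 fold changes of copy A and copy B had a median of 0.63 over the 26 pairs and ran from 0.00 (RPL23) to 1.61 (RPL14). It was at least 1 in 4 pairs. Copy A had the lower value in 18 pairs and copy B in 8. By calls, the copies went opposite ways in 2 pairs, the same way in 6, only 1 copy passed in 14, and neither passed in 4. The 36 other pairs named A and B had a median difference of 0.44, and the ratio did not overlap in 28 of them.

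The sequence of most copies differs enough to place a stretch of 100 bases. Identity of the coding sequences ran from 78.9% (RPL22) to 99.4% (RPL1). In 40 of the 60 genes, the 8 single-copy genes included, every window of 100 bases occurred only once in the genome. The copies encoded the same protein in 7 pairs. In the 8 pairs with at least 95% identity the median difference between copies was 0.27, and in the 18 others it was 0.81. Reads shared between near-identical copies may have been split or dropped, so the values of RPL1, RPL4, RPL7 and RPL11, where 38.7% to 54.8% of the windows of copy A were unique, are uncertain. In RPL14A the share was 74.9%, and 51.4% with shorter windows, so the values of RPL14 are less certain too.

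RPL14 showed the widest difference. RPL14A (YKL006W, chrXI:431906-432720, plus strand) had 12804 and 16404 normalized counts in untreated and 11153 and 10667 in thiolutin cells. RPL14B (YHL001W, chrVIII:104277-105091, plus strand) had 3949 and 4753 in untreated and 9771 and 10103 in thiolutin cells. Copy A thus gave 76.4% and 77.5% of the reads of the pair without thiolutin and 53.3% and 51.4% with it, so a copy that had dominated came to near parity. The log2 fold changes were -0.42 ± 0.14 for RPL14A, just short of the threshold (adjusted p of edgeR 0.0508), and 1.19 ± 0.12 for RPL14B (0.00109). The coding sequences are 96.4% identical, and 74.9% of the windows of RPL14A were unique.

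RPL13A (YDL082W, chrIV:308424-309388, plus strand) was the lowest of the 60 genes. It went from 18675 and 22207 normalized counts to 8172 and 8019, a log2 fold change of -1.34 ± 0.12 (adjusted p of edgeR 0.000734). RPL13B (YMR142C) had 22457 and 25552 without thiolutin and 24864 and 24820 with it, with overlapping groups. The share of copy A went from 45.4% and 46.5% to 24.7% and 24.4%.

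RPL22 encodes a protein that is not essential and that has been described as a repressor of the splicing of RPL22B. RPL22A (YLR061W) had 13393 and 15110 normalized counts without thiolutin and 12157 and 12084 with it. The minor copy RPL22B (YFL034C-A) had 1765 and 1491 without and 2831 and 2938 with thiolutin, a log2 fold change of 0.83 ± 0.11 (adjusted p of edgeR 0.00260), which was 0.24 and not called under total counts. The share of RPL22A went from 88.4% and 91.0% to 81.1% and 80.4%, the untreated replicates being further apart here than in any other pair, at 0.42 on the log2 scale of the ratio.

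In RPL24, whose protein joins late and bridges to the small subunit, both copies passed in opposite directions. RPL24A (YGL031C) went from 20063 and 23423 normalized counts to 14631 and 14181, a log2 fold change of -0.59 ± 0.11 (adjusted p of edgeR 0.00806). RPL24B (YGR148C) went from 17563 and 19210 to 24784 and 24166, a log2 fold change of 0.41 ± 0.10 (0.0168) that turned to -0.18 with total counts. Copy A gave 53.3% and 54.9% of the reads of the pair without thiolutin and 37.1% and 37.0% with it, so that the copies exchanged rank. The only other pair with opposite calls was RPL20, named here after its values were seen, at -0.44 ± 0.10 for RPL20A and 0.32 ± 0.10 for RPL20B (adjusted p of edgeR 0.0139 and 0.0430), the latter turning to -0.27 with total counts.

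RPL19 was the pair with the largest gain of copy A. RPL19A (YBR084C-A) rose from 21686 and 25563 to 39377 and 38701 normalized counts, a log2 fold change of 0.72 ± 0.12 (adjusted p of edgeR 0.00469), which was 0.13 and not called with total counts. RPL19B (YBL027W) had 22922 and 29009 without thiolutin and 22271 and 21662 with it. Here too the copies exchanged rank, copy A going from 48.6% and 46.8% of the reads to 63.9% and 64.1%. The proteins of this pair are identical.

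In RPL26, RPL33 and RPL9 the share of copy A was lower with thiolutin as well. RPL26A (YLR344W) went from 12442 and 14780 to 8035 and 7556 normalized counts, and RPL26B (YGR034W) had 14597 and 19033 without and 18848 and 18253 with thiolutin. RPL33A (YPL143W) went from 24928 and 25231 to 12899 and 12553, and RPL33B (YOR234C) had 6132 and 7279 without and 6538 and 6540 with thiolutin. In these 2 pairs only copy A passed, at log2 fold changes of -0.80 ± 0.12 and -0.98 ± 0.09 (adjusted p of edgeR 0.00349 and 0.000798), and the groups of copy B overlapped.

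In RPL9 the minor copy moved instead. RPL9B (YNL067W) went from 4876 and 4471 to 8335 and 8229 normalized counts, a log2 fold change of 0.83 ± 0.10 (adjusted p of edgeR 0.00152), which was 0.24 and not called with total counts. RPL9A (YGL147C) had 19662 and 20100 without thiolutin and 19210 and 18514 with it. Copy A gave 80.1% and 81.8% of the reads of the pair without thiolutin and 69.7% and 69.2% with it.

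**Figure D3:**
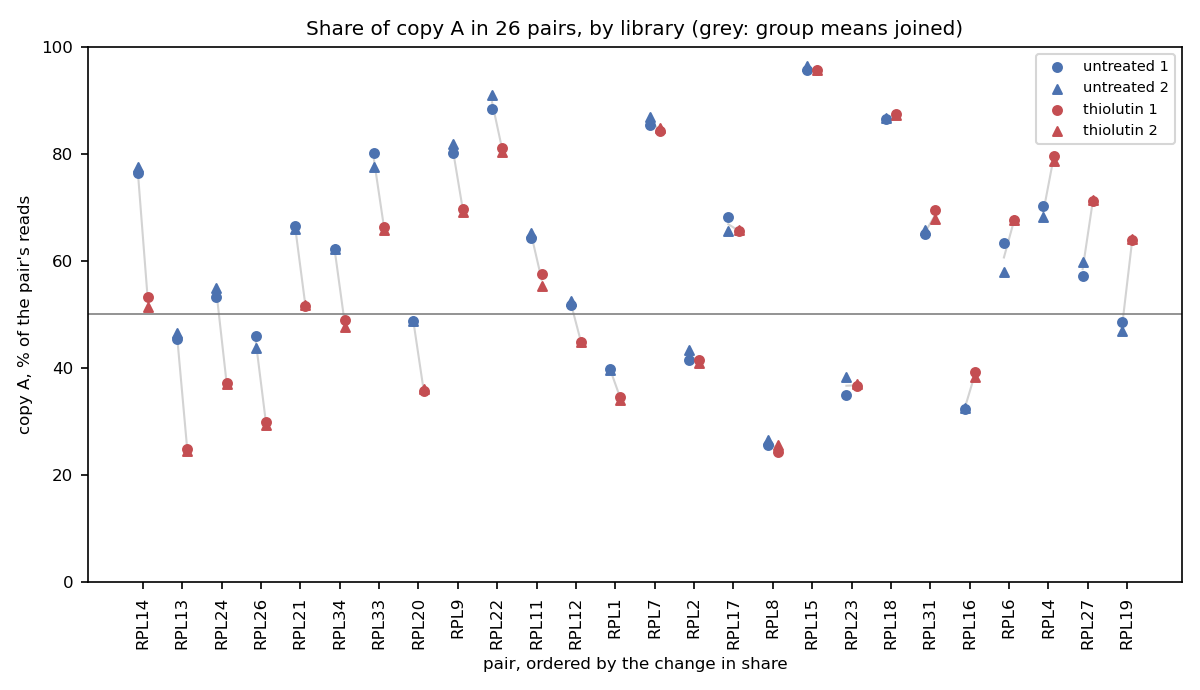
Share of the reads of each pair that came from copy A, in percent (vertical axis), for 26 pairs and 4 libraries, ordered by the change between groups. The share goes from 76.4% and 77.5% to 53.3% and 51.4% in RPL14 at the left and from 48.6% and 46.8% to 63.9% and 64.1% in RPL19 at the right, and the 95% Wilson intervals (counting error only) are at most 0.93 points to each side.

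The least divergent pairs were RPL23, RPL2 and RPL17. In RPL23, whose protein lies at the interface of the subunits, the log2 fold changes were 0.01 ± 0.12 (RPL23A) and 0.01 ± 0.09 (RPL23B), neither called, and both fell to -0.58 under total counts. RPL2A and RPL2B, whose protein is part of the core near the peptidyl transferase centre, were both lower, at -0.42 ± 0.11 and -0.34 ± 0.10 (adjusted p of edgeR 0.0250 and 0.0287). RPL17A and RPL17B, whose protein lines the peptide tunnel, were both lower, at -0.79 ± 0.09 and -0.71 ± 0.10 (adjusted p of edgeR 0.00148 and 0.00309). The ratio of the copies overlapped between the groups in RPL23 and RPL17. In RPL2 it was separated by less than the spread of the untreated replicates.

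RPL21A and RPL6B were also among the 4 lowest genes. RPL21A (YBR191W) went from 27539 and 31009 to 14738 and 15059 normalized counts, a log2 fold change of -0.97 ± 0.11 (adjusted p of edgeR 0.00125), while RPL21B (YPL079W) stood at -0.09 ± 0.11 and was not called. RPL6B (YLR448W) went from 12108 and 15499 to 7281 and 7266, at -0.92 ± 0.14 (adjusted p of edgeR 0.00388), and RPL6A fell too, at -0.48 ± 0.09 (0.00728).

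Copies also differed in level before treatment. Per kb of coding sequence, the level of the stronger copy in untreated cells was 24.9 times that of the weaker one in RPL15, 8.82 times in RPL22, 6.48 times in RPL18 and 6.28 times in RPL7, copy A being the stronger in each. In RPL15, RPL18 and RPL7 copy A held a like share in both groups, at 95.8% and 96.5%, 86.5% and 86.7%, and 85.5% and 87.0% of the reads of the pair without thiolutin and at 95.6% and 95.6%, 87.5% and 87.3%, and 84.2% and 84.8% with it. RPL15B was called higher at 0.46 ± 0.10 (adjusted p of edgeR 0.0107), which turned to -0.13 with total counts. For each of the 26 pairs the major copy was also set by the mean log2 ratio of the copies over all 4 libraries. Its share was lower with thiolutin in 12 pairs and higher in 14. Libraries of both groups enter that choice, so these counts do not describe the copy that was stronger before treatment. A small nucleolar RNA, SNR39, lies inside RPL7A and rose by a log2 of 3.51 to 659 and 699 normalized counts, and SNR59 inside RPL7B rose by 3.07 to 72.1 and 73.5. Their part in the values of RPL7 was not tested.

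With the counts of both copies added before the fit, 8 of the 34 proteins were higher and 10 lower, against 31.2% and 32.2% of the 5911 rows tested. The proteins called lower were RPL2, RPL5, RPL6, RPL8, RPL12, RPL13, RPL16, RPL17, RPL21 and RPL33, at log2 fold changes from -0.78 (RPL8) to -0.37 (RPL2). Those called higher were RPL3, RPL10, RPL29 and RPL30, under either scale, and RPL4, RPL11, RPL28 and RPL31, which were not called with total counts. In RPL20, RPL24 and RPL27, named after their values were seen, copies with log2 fold changes of opposite sign gave sums at 0.00 ± 0.10, -0.04 ± 0.11 and 0.00 ± 0.14 on the TMM scale. Under total counts both copies of each of these pairs were below 0. The sums of -0.59, -0.64 and -0.59 were then called lower (adjusted p of edgeR 0.00455, 0.00402 and 0.0138). On the TMM scale other pairs whose copies differed in sign had sums further from 0. Among them RPL4 was at 0.37 ± 0.10, called higher, and RPL13 at -0.43 ± 0.11, called lower. With either thiolutin library left out, edgeR called 0 of the 34 lower (4 at an unadjusted p under 0.05) and 4 higher.

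Per kb of coding sequence, the summed level of the 34 proteins had a median of 59774 and 67564 normalized counts without thiolutin and 58705 and 56851 with it. RPL33 was the highest in untreated cells, at 95865 and 100340 per kb, and RPL3 in thiolutin cells, at 125954 and 124956 per kb. RPL29 was the lowest in all 4 libraries, at 6553 and 5740 per kb without and 34106 and 34908 per kb with thiolutin. The highest level was 14.6 and 17.5 times the lowest in untreated cells and 3.69 and 3.58 times in thiolutin cells. Without RPL29 these ratios were 2.96 and 2.90 against 3.27 and 3.23, so the narrowing rested on that gene.

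**Figure D4:**
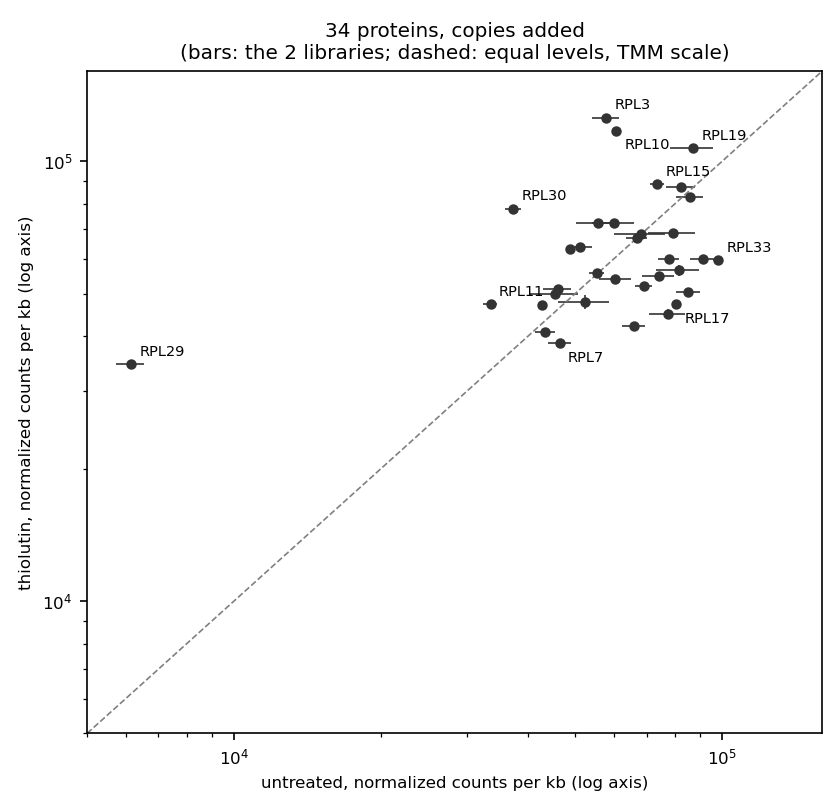
Normalized counts per kb of coding sequence, copies added, of 34 proteins in untreated (horizontal axis) and thiolutin cells (vertical axis), both log axes, with bars from the lower to the higher library. Points above the dashed line are higher with thiolutin on the TMM scale, and RPL29 at 6553 and 5740 per kb lies apart from the rest in untreated cells.

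An intron interrupts 39 of the 60 genes. Of these 8 were higher and 14 lower, with a median log2 fold change of -0.23, and of the 21 genes without an intron 9 were higher and 5 lower, with a median of 0.27. No test was run on this split, and of all genes tested 31.2% were called higher and 32.4% lower. Levels per kb were alike in untreated cells, with medians of 35445 for genes with and 34515 for genes without an intron. For the genes with an intron, the coordinates in the count table are those of the first exon, which has 1 to 309 bp. These genes had at least 1492 reads in every library, the lowest being RPL22B in thiolutin replicate 1. With levels per kb alike, the counts do not appear limited to the first exon, but this was not tested for each gene.

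Upstream sequence was searched because Rap1 is the main activator of these genes. The core ACCCNNACA of Rap1, on either strand, occurred within 500 bp before the start codon in 26 of the 60 genes (43.3%), against 5.47% of 6000 yeast promoters. The letters GACGCNNA of Fhl1 occurred in 14 genes (23.3% against 11.3%), and the motif of Abf1 in 3 (5% against 9.55%). No match of Rap1 overlapped one of Fhl1. Genes with a Rap1 match had a median log2 fold change of -0.18 (5 higher, 8 lower), and the 34 without had -0.07 (12 higher, 11 lower). This split was not tested either, beside 31.2% higher and 32.4% lower over all genes tested. Among the 8 pairs that differed most, both copies held a match in RPL13, RPL26 and RPL33, one copy in RPL9, RPL14, RPL19 and RPL22, and neither in RPL24. The matches of these pairs are shown with their surroundings, read 5′ to 3′ on the strand of the gene in R64, to compare the copies; capitals mark the core or its reverse complement.
RPL13A chrIV:308133-308162, plus strand: tttttcaacaTGTATGGGTgttttttctga
RPL13A chrIV:308196-308225, plus strand: ttaatatgtgACCCATACAtttcctgttac
RPL13B chrXIII:551610-551639, minus strand: gattttataaTGTATGGGTgccaatatgta
RPL13B chrXIII:551519-551548, minus strand: tacattacgcACCCATACAtttatagtttt
RPL14A chrXI:431486-431515, plus strand: gcgcaaatacACCCATACActatttttaca
RPL22B chrVI:65158-65187, minus strand: ccatgtcaacACCCGTACAtattcagagat
RPL19B chrII:168027-168056, plus strand: gtgttttaaaACCCAGACAtatttttcacc
RPL26A chrXII:819032-819061, plus strand: tttcatgtaaTGTATGGGTtaactaatcct
RPL26B chrVII:555518-555547, plus strand: gcattaaaggTGTTTGGGTttaataggagc
RPL33A chrXVI:281758-281787, plus strand: acctctttacACCCTTACActtcctttgat
RPL33B chrXV:779856-779885, minus strand: gcctgtataaACCCATACAatcagcccata
RPL9A chrVII:228620-228649, minus strand: tttccagaaaTGTTTGGGTttattttttaa
RPL13A, the lowest of the 60 genes, and RPL13B, which did not pass, both held a pair of matches in opposite orientation with the same core letters. RPL14B, RPL3, RPL10, RPL29 and RPL30, the 5 highest of the 60 genes, held no match of this core in the window. They were picked by their change, and 34 of the 60 genes held no match. Of these 5 genes, only RPL3 held a match of Fhl1. Among the lowest genes, RPL13A, RPL33A and RPL6B held a match of Rap1 and RPL21A did not. Whether Rap1 binds the genes without a match was not tested.

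A list of 12 regulators of ribosomal protein and ribosome biogenesis genes mixes activators with repressors. Of the 12, 2 were called higher and 8 lower, with a median log2 fold change of -0.56. Among all genes tested 31.2% were called higher and 32.4% lower. IFH1, the coactivator that binds Fhl1, went from 973 and 1198 to 3148 and 3208 normalized counts, at 1.55 ± 0.13 (adjusted p of edgeR 0.000575), and TOD6, a repressor of ribosome biogenesis genes, stood at 1.06 ± 0.16 (0.00337). SFP1, an activator that responds to nutrients, went from 2008 and 2061 to 1029 and 930.2, at -1.06 ± 0.09 (adjusted p of edgeR 0.000689). RAP1 and HMO1 were lower at -0.43 ± 0.10 and -0.34 ± 0.09, and FHL1 was not called at 0.10 ± 0.10 (adjusted p of edgeR 0.0153, 0.0206 and 0.450). The others called lower were DOT6, SCH9, TBF1, ABF1 and STB3, from -0.87 to -0.68. These 10 were also called under total counts, as were FHL1 and CRF1, lower at -0.49 and -0.71.

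Some of the 8 listed chaperones and importers of large-subunit proteins can be set beside their clients. BCP1, the chaperone of Rpl23, was at 0.98 ± 0.13, and ACL4, that of Rpl4, at 0.95 ± 0.16 (adjusted p of edgeR 0.00229 and 0.00475). PUF6, which attends Rpl43, was at 0.69 ± 0.18 (adjusted p of edgeR 0.0217). SYO1, SQT1 and RRB1 are named here after their values were seen, because their clients are described above. SYO1, which carries Rpl5 and Rpl11, was at 0.68 ± 0.16 and SQT1, the chaperone of Rpl10, at 0.54 ± 0.17 (adjusted p of edgeR 0.0166 and 0.0375), and the latter turned to -0.05 with total counts. RRB1, the chaperone of Rpl3, was not called at 0.04 ± 0.16 (adjusted p of edgeR 0.843), although RPL3 was at 1.12. With total counts RRB1 was called lower at -0.55 and BCP1 stayed higher at 0.39. ACL4, PUF6, SYO1 and SQT1 were not called on that scale. On the TMM scale 5 of the 8 genes of this list were higher and 1 lower, against 1 and 2 with total counts. All genes tested had shares of 31.2% and 32.4% with TMM and 16.3% and 60.7% with total counts. The gene called lower on the TMM scale was PSE1, named after its value was seen, at -0.54 (adjusted p of edgeR 0.0242).

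The remaining large-subunit genes stood higher than the 60 described here on the TMM scale. The shares over all genes tested were 31.2% higher and 32.4% lower on that scale, and 16.3% and 60.7% with total counts. Of 21 genes of RPL35 to RPL43 and the stalk, 14 were called higher and 1 lower, with a median log2 fold change of 0.44, against 4 and 4 and a median of -0.15 with total counts. RPL41B, RPL41A and RPL39, which encode very small proteins, led at 2.97 ± 0.18, 2.28 ± 0.10 and 1.74 ± 0.12 (adjusted p of edgeR 0.000274, 0.000136 and 0.000415). The 56 small-subunit genes resembled the 60 genes in their counts, with 12 higher, 14 lower and a median of -0.04, against 4, 42 and -0.62 with total counts. Of 50 factors that assemble the large subunit, edgeR called 33 higher and 0 lower (0 also at an unadjusted p under 0.05, and 0 by DESeq2), with a median of 0.66, against 13, 6 and 0.07 with total counts. RRP14, NOP15 and RPF1 led this list at 2.27 ± 0.21, 1.70 ± 0.14 and 1.68 ± 0.15 (adjusted p of edgeR 0.000740, 0.000546 and 0.000661).

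**Figure D5:**
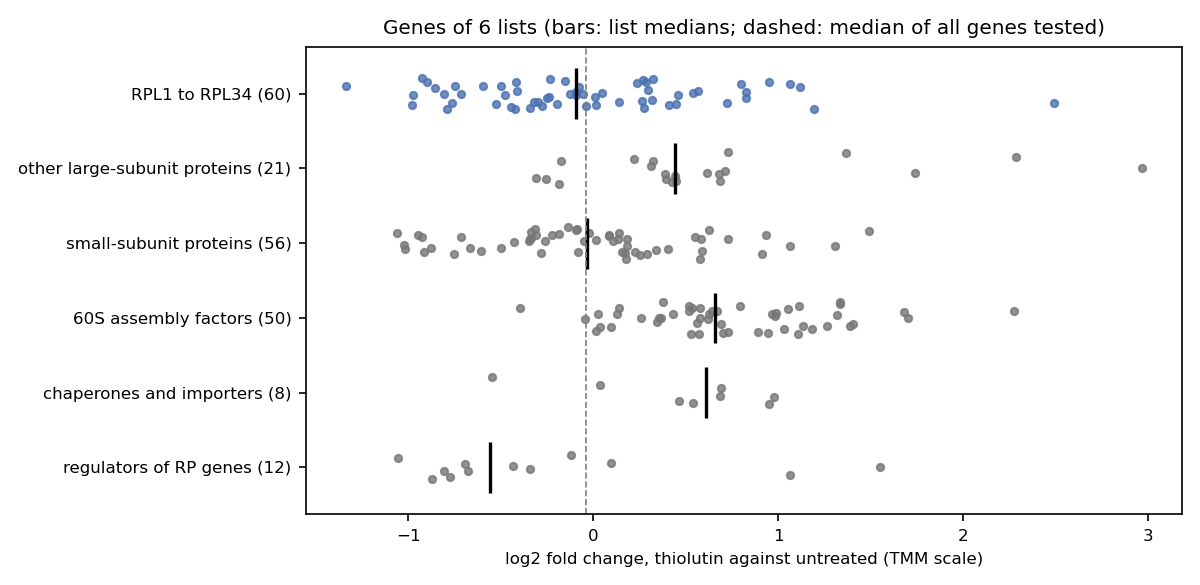
Log2 fold change (horizontal axis, TMM scale) of the genes of 6 lists, with bars at list medians and a dashed line at the median of all genes tested. Medians run from -0.56 (regulators) to 0.66 (assembly factors), the 60 genes stand at -0.09, and under total counts the median of the other large-subunit genes is -0.15.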

How the data were processed

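Poly(A)-selected RNA of 2 untreated and 2 thiolutin cultures of BY4741 was sequenced as paired-end reads. The count values as deposited are raw reads per gene on R64, made by the authors with no normalization. The authors tested them with DESeq2, per the submitters' processing notes, and neither aligner nor counting program is named in the sources. The authors' normalized counts, fold changes and p-values were not used. Labels give replicate numbers, and nothing further says how cultures were shared, so p-values measure the spread between these libraries.

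Counts of the 6209 genes were filtered with filterByExpr of edgeR 4.0.16 (R 4.3.3), scaled by TMM and compared with its quasi-likelihood test (condition only), adjusted by Benjamini-Hochberg over 5937 genes, with calls at an adjusted p under 0.05. The standard error is the absolute log2 fold change divided by the square root of F. Normalized counts are TMM-scaled CPM times the mean effective library size. The log2 ratio of copies was taken with 0.5 added to each count. Depth was 17038991 to 30205335 reads, and intervals on shares are 95% Wilson intervals that cover counting error only. Sequences, introns and neighbours come from the R64 reference with Python 3.11.15 and Biopython 1.88, and exact tests from scipy 1.17.1. The edgeR fit was tested on simulated counts.

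Named genes are the 8 single-copy genes, the 8 pairs with the largest and the 3 with the smallest difference between copies, the 4 highest and 4 lowest genes, the 4 pairs with the most unequal copies per kb, at most 3 genes of each other list, and all regulators called. Alternatives were DESeq2 1.42.0 with its Wald test, its size factors, total counts, no filter, the replicate block, an adjusted p under 0.01, each library left out, members left out where a gene within 500 bp changed by a log2 of 2 or more, and pairs under 95% identity. The count of proteins higher was added after the data were seen. The members and lists were chosen with earlier results of these data known.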

Additional observations from a re-analysis of the deposited data

How the results depend on the processing

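With total counts as the scale the genes called higher were 5 and those lower 42 (17 and 19 with TMM), their median log2 fold change was -0.68 (-0.09 with TMM), and of the proteins with copies summed 4 were higher and 24 lower (8 and 10 with TMM). At an adjusted p under 0.01, 11 genes were higher, and 5 proteins were higher and 6 lower. With the replicate block 14 genes were higher and 18 lower, and 5 proteins higher. The replicate numbers share no named origin, and replicate 1 minus 2 correlated across genes between the groups at 0.02. Leaving out one library at a time gave 2062 to 5009 genes called over the whole table, 8 to 26 of the 60 genes higher, 3 to 35 lower, a median log2 fold change of -0.16 to -0.01, 4 to 16 proteins higher and 0 to 17 lower, and the lowest counts came without a thiolutin library. In those fits the lone library is assumed to vary like the other group. The median difference between copies was 0.81 in pairs under 95% identical and 0.58 to 0.67 with a library left out. Leaving out genes near a strongly changed neighbour gave 14 higher and 17 lower. DESeq2, its size factors and no filter gave 14 to 18 higher and 19 to 20 lower.

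The log2 fold change changed sign with total counts in RPL1B (-0.31), RPL4A (-0.022), RPL11A (-0.29), RPL13B (-0.54), RPL15A (-0.32), RPL15B (-0.13), RPL20B (-0.27), RPL23A (-0.58), RPL23B (-0.58), RPL24B (-0.18), RPL26B (-0.45), RPL27A (-0.31), RPL28 (-0.27), RPL31A (-0.14), RPL31B (-0.35), RPL32 (-0.32) and RPL34B (-0.049). With a library left out RPL23A ran from -0.10 (without untreated replicate 1) to 0.14 (without untreated replicate 2), and RPL33B from -0.15 to 0.10 in the same order. Total counts lower every gene alike by construction, and the cause of the other sign changes was not tested.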
